A study of Rattus norvegicus with 6 samples.

Results

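Vegfa, its receptors Kdr and Flt1, and Vwf were measured as messenger RNA in rat tendon 14 days after surgery. The set held 4 of the 22250 genes of the deposited table and was chosen by gene ID: ENSRNOG00000019598 (Vegfa), ENSRNOG00000046829 (Kdr), ENSRNOG00000000940 (Flt1) and ENSRNOG00000019689 (Vwf). The table lists IDs only, and 0 of its IDs were paired with a symbol by the reference table used here, so these names came with the definition of the set. All 4 had counts in every library and passed the filter on low counts.

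In both groups, Sprague–Dawley rats had the achilles tendon cut at its midpoint and sutured at once. The injury model group (3 rats) is labelled as untreated, and no vehicle injection is described for it. The celecoxib + lactoferrin treatment group (3 rats) received daily injections at the wound of celecoxib, a cyclooxygenase-2 inhibitor, and lactoferrin, an iron-binding milk glycoprotein. The effects of the agents, and of injection itself, cannot be told apart between these groups. The labels write the time point as an age, while the study's methods give it as the day after surgery.

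VEGF-A is a secreted growth factor that many cell types release, and more so when oxygen is low. It acts on endothelial cells, which line blood vessels. Kdr encodes VEGF receptor 2, the main signalling receptor for endothelial division and migration. Flt1 encodes VEGF receptor 1, which binds the ligand tightly with weak signalling and, in a soluble form, acts as a decoy. Vwf encodes von Willebrand factor, a clotting glycoprotein that endothelial cells store and release, and that megakaryocytes and platelets also carry. Intact tendon holds few vessels, and new vessels grow into the scar as it heals. The comparison asks whether transcripts of this vessel system differed between treated and untreated tendons, in a study that also stained sections for an endothelial antigen. The study reports a wider distribution of that antigen in the celecoxib + lactoferrin group than in the injury model group. That reading is of protein in sections, not of RNA.

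The libraries held between 34546567 and 47181784 counts, and TMM factors, which correct for composition, lay between 0.907 and 1.09. Counts of the 4 genes lay between 2464 and 13622 per library. The 95% Wilson interval of a single value was therefore narrow, at most ±3.95% of the value, and it covers counting error only. Levels are given as CPM (counts scaled to a common library total) after TMM scaling and were not compared between genes, because transcript lengths were not used here. The whole tissue was sequenced, so fewer cells of a type and less RNA per cell cannot be told apart.

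Promoter sequences from RefSeq were matched by symbol for 3 of the 4 genes; Vwf had none. The sequences of Vegfa and Kdr are shown because 1 library (treated replicate 2) held the lowest level of the ligand and the highest of the receptor. The window for Flt1 lies inside the listed span of the gene and is not printed. Both are on the plus strand of the GRCr8 build, 5′ to 3′, and end just before the first base of the gene, Vegfa at chr9:22452604-22452853 and Kdr at chr14:32571813-32572030. Capitals mark GGGCGG (the GC box) and the hypoxia response cores ACGTG and GCGTG, each searched on both strands.
Vegfa: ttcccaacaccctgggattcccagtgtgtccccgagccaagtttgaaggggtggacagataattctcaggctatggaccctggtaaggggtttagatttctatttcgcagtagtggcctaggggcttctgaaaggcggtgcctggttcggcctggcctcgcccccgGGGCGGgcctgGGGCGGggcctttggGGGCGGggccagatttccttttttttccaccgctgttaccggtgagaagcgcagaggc
Kdr: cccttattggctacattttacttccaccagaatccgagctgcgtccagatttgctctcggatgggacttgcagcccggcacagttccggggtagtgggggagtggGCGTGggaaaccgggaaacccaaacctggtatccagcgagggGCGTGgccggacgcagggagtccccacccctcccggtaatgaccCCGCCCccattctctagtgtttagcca
The 250 bases before Vegfa held 3 matches to GGGCGG, a motif found in 30.5% of 33469 windows of that length. They held 0 matches to ACGTG (16.6% of windows) and 0 to GCGTG (25.9%). The 218 bases before Kdr held 1 match to GGGCGG (27.0% of windows of that length), 2 to GCGTG (22.9%) and 0 to ACGTG (14.5%). A match describes letters only and is neither a bound site nor a cause of a level. Bases farther upstream were not searched, and only 1 of the 2 windows listed for Vegfa was used. A count of 0 therefore says nothing about sites elsewhere.

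None of the 4 genes passed the threshold of the test when treated tendons were compared with the injury model group. In edgeR's quasi-likelihood test, 0 of 4 had an adjusted p-value under 0.05 (Benjamini-Hochberg over 15122 genes), against 0.00661% of all genes tested. At an unadjusted p-value under 0.05 the count was also 0 of 4, against 2.61% of all genes. DESeq2, the tool named in the study's methods, gave 0 of 4 at either threshold, against 0.164% and 3.21% of all genes. The group ranges overlapped for each of the 4 genes, and they did not overlap in 7.80% of all genes tested. The largest difference was in Vwf, whose mean was 1.38-fold as high in treated tendons, and the other 3 lay closer to 1.

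The ligand was measured at nearly the same level in the untreated rats. Vegfa stood at 94.7, 105 and 95.7 CPM in injury model replicates 1, 2 and 3. In celecoxib + lactoferrin replicates 1, 2 and 3 it stood at 101, 73.6 and 90.3 CPM. Treated replicate 2 was the lowest of all 6 rats, and treated replicate 1 lay between the untreated rats. The mean was 98.5 ± 5.70 CPM (SD, n = 3) in untreated rats and 88.4 ± 14.0 CPM (SD, n = 3) in treated rats. The fold was 0.898 with a 95% confidence interval from 0.686 to 1.18 (log2 fold change -0.16, standard error 0.17, adjusted p = 0.998, edgeR). Without treated replicate 2 the log2 fold change was -0.05.

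Kdr, the signalling receptor, varied widely inside each group. Its levels were 116, 88.0 and 73.0 CPM in injury model replicates 1, 2 and 3. The values were 85.2, 118 and 83.8 CPM in celecoxib + lactoferrin replicates 1, 2 and 3. Each group thus held 1 rat at 116 to 118 CPM, and the untreated rats held nearly the whole range. The mean was 92.4 ± 21.9 CPM (SD, n = 3) in untreated rats and 95.7 ± 19.4 CPM (SD, n = 3) in treated rats. The fold was 1.04 with a 95% confidence interval from 0.720 to 1.49 (log2 fold change 0.05, standard error 0.23, adjusted p = 0.998, edgeR). The sign depended on single rats: the log2 fold change was -0.13 without treated replicate 2, -0.10 without injury model replicate 3 and 0.25 without injury model replicate 1.

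Flt1, the high-affinity receptor, had a tighter spread in the untreated rats than Kdr. It measured 99.2, 95.8 and 82.5 CPM in injury model replicates 1, 2 and 3. In celecoxib + lactoferrin replicates 1, 2 and 3 it measured 91.5, 129 and 94.9 CPM. Treated replicate 2 stood above the other 5 rats, which lay within 82.5 to 99.2 CPM. The mean was 92.5 ± 8.83 CPM (SD, n = 3) in untreated rats and 105 ± 20.9 CPM (SD, n = 3) in treated rats. The fold was 1.14 with a 95% confidence interval from 0.845 to 1.53 (log2 fold change 0.19, standard error 0.19, adjusted p = 0.998, edgeR). Without treated replicate 2 the log2 fold change was 0.01, so the difference in means rested on that rat.

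Vwf, the product stored by mature endothelium, had the largest difference in means of the set. Its levels were 220, 251 and 190 CPM in injury model replicates 1, 2 and 3. The values were 251, 391 and 270 CPM in celecoxib + lactoferrin replicates 1, 2 and 3. The highest 2 of the 6 rats were treated and the lowest 2 were untreated, while injury model replicate 2 (250.94 CPM) and treated replicate 1 (250.87 CPM) met at the same level. The mean was 220 ± 30.6 CPM (SD, n = 3) in untreated rats and 304 ± 76.0 CPM (SD, n = 3) in treated rats. The fold was 1.38 with a 95% confidence interval from 0.958 to 1.99 (log2 fold change 0.46, standard error 0.23). The unadjusted p-value was 0.076 and the adjusted p-value 0.998 (edgeR), and 4.49% of all genes tested had a smaller p-value. Without treated replicate 2 the log2 fold change was 0.24 (unadjusted p-value 0.24, edgeR), and leaving out injury model replicate 3 gave 0.37.

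**Figure D1:**
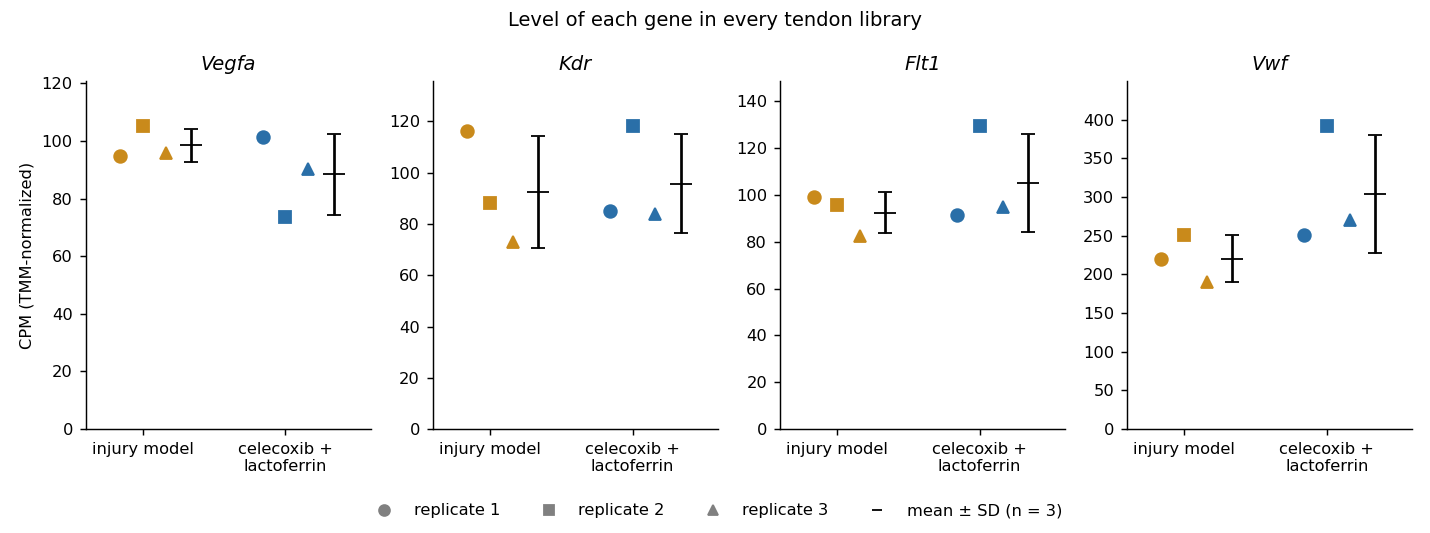
Level of Vegfa, Kdr, Flt1 and Vwf in every library, in CPM after TMM scaling on a linear axis from 0. Each symbol is 1 rat (circle, square and triangle for replicates 1, 2 and 3), orange for the injury model group and blue for the celecoxib + lactoferrin treatment group, and the black bar is the mean ± SD (n = 3). Treated replicate 2, the blue square, is the highest rat for Kdr, Flt1 and Vwf (391 CPM for Vwf) and the lowest for Vegfa (73.6 CPM).

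Treated replicate 2 was the highest or the lowest rat of its group in all 4 genes. Relative to the mean of treated replicates 1 and 3 it held 1.5 times as much Vwf, 1.40 times as much Kdr and 1.39 times as much Flt1, and 0.768 times as much Vegfa. The receptors and Vwf were thus high and the ligand low in the same tendon. Other rats also deviated. Treated replicate 1 held 1.24 times as much Vegfa as the mean of the other treated rats. Injury model replicate 1 held 1.44 times as much Kdr as the mean of the other untreated rats. In the injury model group, replicate 3 was the lowest for Kdr, Flt1 and Vwf, at 0.715, 0.846 and 0.806 times the mean of the other rats of its group. These 3 transcripts together were lowest in an untreated rat and highest in a treated one, with 4 rats in between that were mixed in order. Marker genes of other cell types, platelets and skeletal muscle included, and of tendon itself could not be matched to the IDs, so their part in these differences was not tested.

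**Figure D2:**
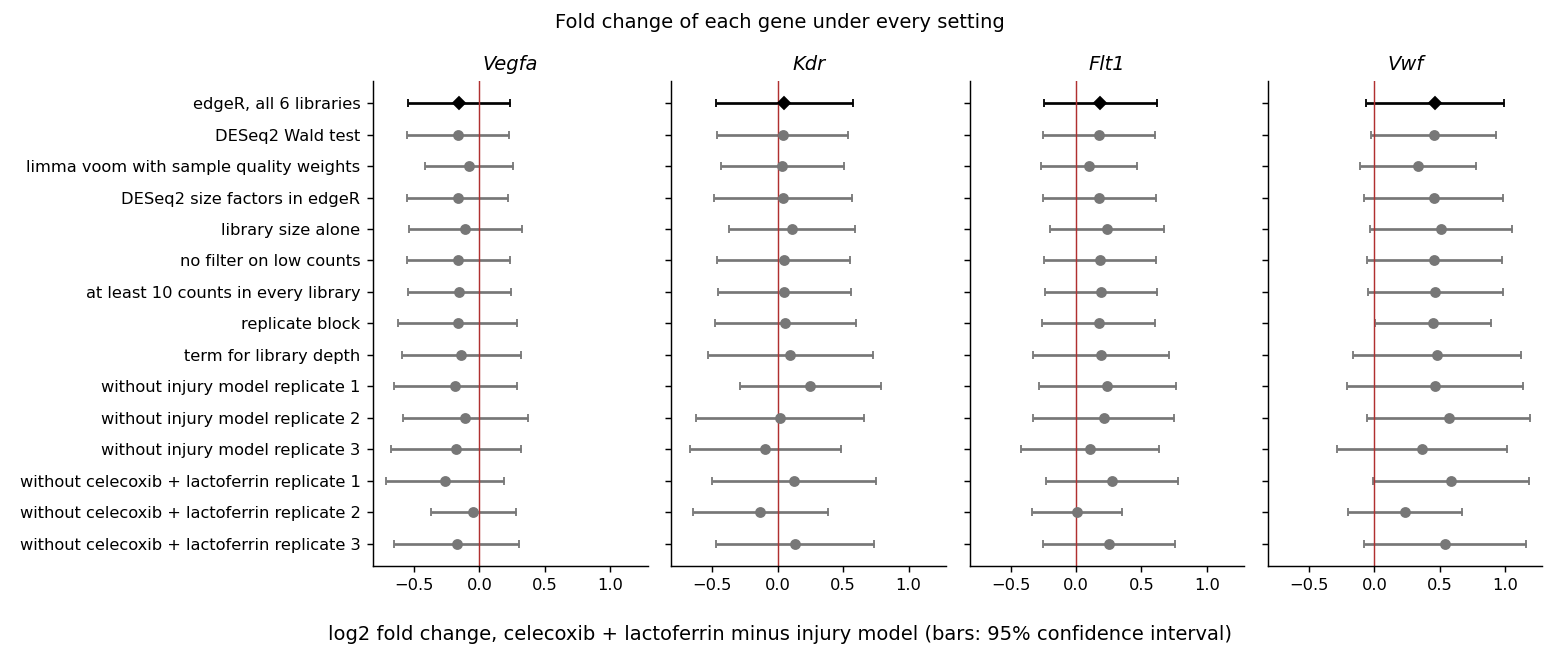
Log2 fold change of each gene, celecoxib + lactoferrin minus injury model, with its 95% confidence interval, for edgeR on all 6 libraries (black diamond) and for 14 alternative settings (grey circles). The red line marks no difference. The estimate for Vwf stays right of the line in every setting, from 0.24 to 0.58, while that for Kdr falls on either side, from -0.13 to 0.25. The interval for Vwf crosses the line in every setting except the replicate block (0.003 to 0.89). The settings reuse the same 6 libraries.

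The libraries also fell into 3 deeper ones (injury model replicates 1 and 2 and treated replicate 3) and 3 shallower ones (injury model replicate 3 and treated replicates 1 and 2). Vwf was higher in treated rats inside each of these classes. Each class holds only 3 libraries, and the share of all genes that did the same was not computed. Among the deeper libraries it was 270 CPM in the treated rat and 220 and 251 CPM in the untreated rats. Among the shallower ones it was 251 and 391 CPM in the treated rats and 190 CPM in the untreated rat. Kdr went opposite ways. It was 83.8 CPM in the treated rat against 116 and 88.0 CPM in the untreated rats among the deeper libraries. Among the shallower ones it was 85.2 and 118 CPM against 73.0 CPM. Flt1 also went opposite ways, with 94.9 CPM against 99.2 and 95.8 CPM among the deeper libraries. Its shallower values were 91.5 and 129 CPM against 82.5 CPM. Vegfa was lower in the treated rat of the deeper class (90.3 against 94.7 and 105 CPM). In the shallower class it was mixed (101 and 73.6 against 95.7 CPM). With a term for this depth class the log2 fold change was 0.48 for Vwf (unadjusted p-value 0.12, edgeR) and 0.10 for Kdr (unadjusted p-value 0.73, edgeR).

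The ratio of counts of genes within a library does not depend on library size or on TMM scaling, so the balance of the 4 transcripts was compared between groups as a log2 ratio (0.5 added to each count). Only differences between groups are read from it, since the level of a ratio also reflects transcript length. Vwf was high relative to Kdr in each treated tendon. The count of Vwf was 2.94, 3.31 and 3.22 times that of Kdr in celecoxib + lactoferrin replicates 1, 2 and 3, and 1.90, 2.85 and 2.60 times in injury model replicates 1, 2 and 3. The lowest treated rat therefore lay above the highest untreated one, by a narrow margin. The mean log2 ratio was 1.27 ± 0.31 (SD, n = 3) in untreated rats and 1.66 ± 0.09 (SD, n = 3) in treated rats, a difference of 0.39, or 1.31-fold. The two-sided exact permutation test gave p = 0.1, the smallest p that 3 rats against 3 allow. Of the other genes tested, 1.61% had a ratio to Kdr that was higher in all treated than in all untreated rats. Genes separated in the opposite direction were not counted, here or for the other ratios, although the permutation test counts either direction.

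The same held for Vwf against Flt1, a ratio chosen after the values had been seen. It was 2.74, 3.02 and 2.85 in treated replicates 1, 2 and 3, and 2.22, 2.62 and 2.30 in injury model replicates 1, 2 and 3. The difference of mean log2 ratios was 0.27 (two-sided exact permutation test, p = 0.1), and 1.31% of genes had a ratio to Flt1 that separated the groups in this direction. Against Vegfa, also chosen after the values had been seen, the ratio of Vwf was 2.47, 5.31 and 2.99 in treated replicates 1, 2 and 3 and 2.33, 2.39 and 1.98 in the untreated ones. The difference of mean log2 ratios was 0.61 (two-sided exact permutation test, p = 0.1), but 7.90% of genes had a ratio to Vegfa that separated the groups this way. After Benjamini-Hochberg adjustment over the 6 ratios formed from these genes, p was 0.2 for each of the 3 ratios of Vwf (exact permutation tests). The plan had been to adjust over 3 ratios only, those of Vegfa, Flt1 and Vwf to Kdr. The ratios of Vwf added later also had p = 0.1 (exact permutation tests), which lowers the adjusted p of Vwf to Kdr. The value of 0.2 is therefore not that of the planned adjustment. The 3 ratios of Vwf share its counts and are not independent of each other.

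Every treated rat lay above every untreated one in the Vwf ratios. Leaving out single rats could therefore change only the size of these differences, not their direction. Relative to Kdr the log2 difference was lowest without injury model replicate 1 (0.21) and highest without injury model replicate 2 (0.51). Relative to Flt1 it ran from 0.22 to 0.34. Relative to Vegfa it was 0.29 without treated replicate 2, against 0.61 with all 6 rats.

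The receptors kept a near-constant proportion in all rats but one. The count of Flt1 was 1.07, 1.10 and 1.13 times that of Kdr in treated replicates 1, 2 and 3, and 1.09 and 1.13 times in injury model replicates 2 and 3. Injury model replicate 1, with 0.854, was the exception. The treated mean log2 ratio was higher by 0.11 (p = 0.6, two-sided exact permutation test), and leaving out injury model replicate 1 gave -0.01. The ligand relative to its receptors overlapped between the groups. The count of Vegfa was 0.815, 1.19 and 1.31 times that of Kdr in injury model replicates 1, 2 and 3 and 1.19, 0.623 and 1.08 times in treated replicates 1, 2 and 3, a log2 difference of -0.22 (two-sided exact permutation test, p = 0.5). It was 0.06 without treated replicate 2. Relative to Flt1 the log2 difference of Vegfa was -0.34 (two-sided exact permutation test, p = 0.4), and without treated replicate 2 it was -0.06.

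**Figure D3:**
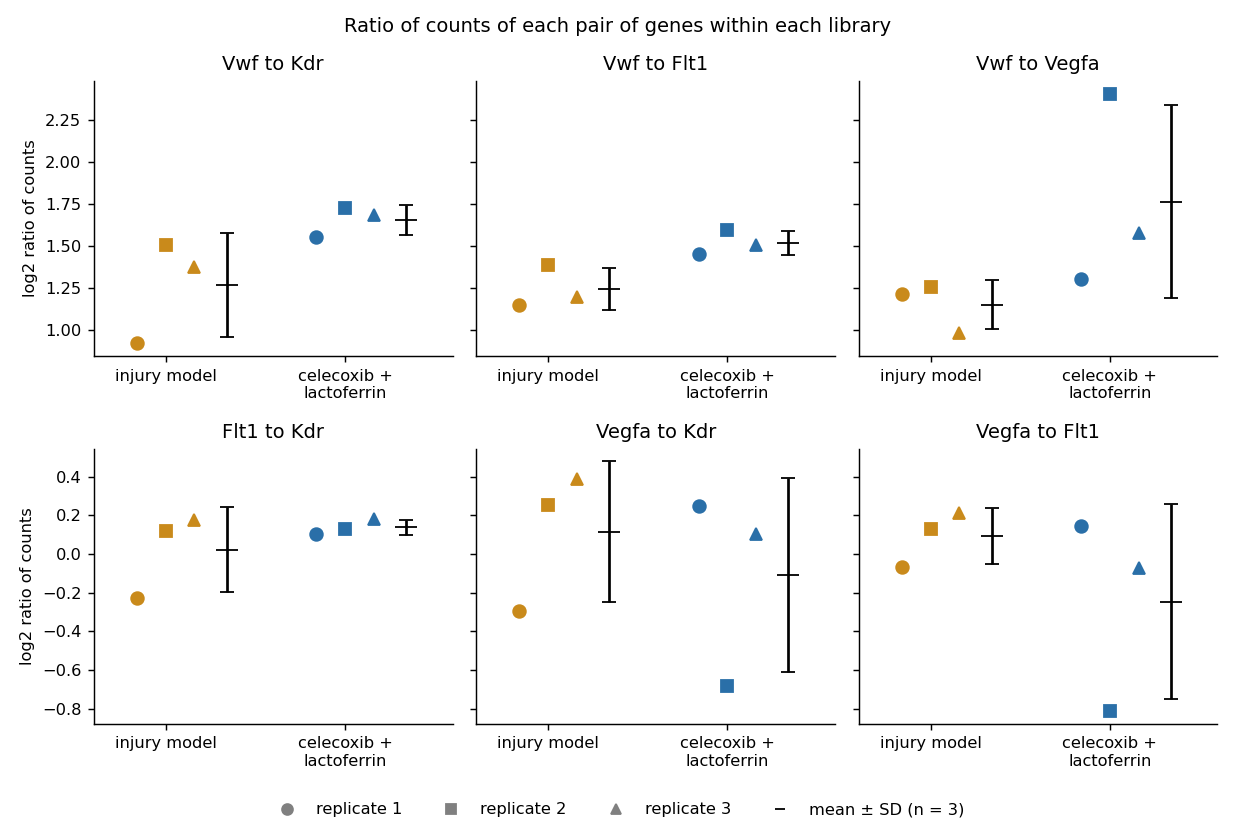
Log2 ratio of counts within each library for the 6 pairs of genes, by group. Symbols are single rats (circle, square and triangle for replicates 1, 2 and 3) and black bars the mean ± SD (n = 3), with axes that do not start at 0. In the 3 upper panels every treated rat lies above every untreated one, while in the 3 lower panels the groups overlap.

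Across the 6 libraries, Kdr and Flt1 followed each other. Pearson's r of their log2 CPM was 0.83 and Spearman's rho 0.94, and r was 0.95 over the 4 libraries left without injury model replicate 1 and treated replicate 2, the farthest from the median of Kdr. Flt1 and Vwf had r = 0.92 and rho = 0.60, but r was -0.65 without injury model replicate 3 and treated replicate 2, so this relation rested on those libraries. Vegfa ran against Flt1, with r = -0.82 and rho = -0.49, and r was -0.27 without injury model replicate 2 and treated replicate 2. Kdr and Vwf had r = 0.59 and rho = 0.49, and r was 0.90 without injury model replicate 1 and treated replicate 2. All values of r describe 6 libraries in which both genes share the same depth and scaling, and no p-value is given.

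**Figure D4:**
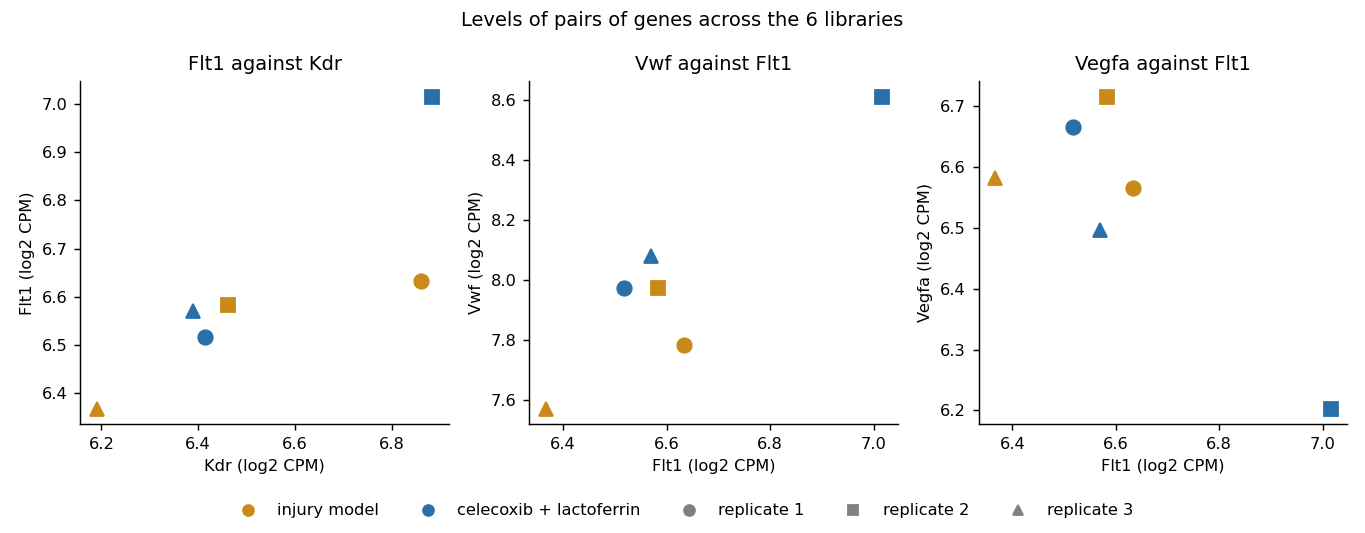
Level of Flt1 against Kdr, Vwf against Flt1 and Vegfa against Flt1 in log2 CPM (prior count 2), with 1 symbol per library, coloured by group and shaped by replicate. The first panel rises along its length (r = 0.83), whereas in the other panels treated replicate 2, the blue square, lies far from the remaining 5 libraries.

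The spread between rats, rather than counting error, set the precision of these comparisons. The biological coefficient of variation estimated by edgeR was 20.8% for Vegfa, 24.6% for Kdr, 22.0% for Flt1 and 26.6% for Vwf. Each lay below the trend for genes of similar abundance, which was 27.5%, 27.5%, 27.6% and 32.4%. With 3 rats a group, the intervals still left room for a fold of up to 1.18 for Vegfa, 1.49 for Kdr, 1.53 for Flt1 and 1.99 for Vwf. They also left room for a fold as low as 0.686, 0.720, 0.845 and 0.958, in the same order.

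The genes whose pattern over the 6 libraries was most like each member can be given by ID only. They were ENSRNOG00000007098 for Vegfa (r = 0.996), ENSRNOG00000007989 for Kdr (r = 0.992), ENSRNOG00000023403 for Flt1 (r = 0.984) and ENSRNOG00000012108 for Vwf (r = 0.993), by Pearson's r of log2 CPM. Each is the highest r picked from 15122 genes over only 6 libraries. At a lower cutoff, 33 genes had r over 0.95 with Vegfa, 27 with Kdr, 47 with Flt1 and 52 with Vwf.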

How the data were processed

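Tendon mRNA of 3 injury model rats and 3 celecoxib + lactoferrin rats was analysed, grouped by the sample labels and by the sample names in the study's heatmap. The authors sequenced on an Illumina platform, aligned reads with HISAT2 to a rat genome (per the methods, Rnor_6.0; the submitters' processing notes name the human build GRCh38.p13, whereas the gene IDs are rat) and deposited raw counts per gene ID. Counting tool, strand setting and handling of multi-mapping reads are not given in the sources used here, and whether reads were shared with overlapping genes was not tested. The labels do not say whether replicates came from separate rats; the methods describe 3 rats per group killed on day 14.

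The whole table was fitted with edgeR 4.0.16 in R 4.3.3 (filterByExpr by group, TMM, robust quasi-likelihood test, Benjamini-Hochberg over 15122 genes). DESeq2 1.42.0 and limma 3.58.1 (voom with quality weights) were alternatives, besides other scalings and filters, a replicate block, a depth term and each rat left out. The main edgeR fit, DESeq2 and limma were checked on simulated counts, and the other settings were not. Ratios were compared with exact permutation tests. The genes described are the 4 members and, for each, the most similar gene by Pearson's r. Members, lists and alternatives were chosen with earlier results of these data known. The 13 gene lists (92 symbols) planned for other vessel, hypoxia and cell type genes were not analysed here, since 0 of 22250 IDs could be paired with symbols.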

Additional observations from a re-analysis of the deposited data

How the results depend on the processing

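No member had an adjusted p-value under 0.05 in any of the 14 alternatives to the edgeR fit (DESeq2, limma and edgeR). Vegfa, Flt1 and Vwf kept the direction of their log2 fold change in all 14, and Kdr in all but 2. With one rat left out in turn, the log2 fold change ran from -0.27 to -0.05 for Vegfa, from -0.13 to 0.25 for Kdr, from 0.01 to 0.28 for Flt1 and from 0.24 to 0.58 for Vwf. It reversed for Kdr without injury model replicate 3 (-0.10) and without treated replicate 2 (-0.13). In the 8 other alternatives it ran from -0.17 to -0.08, from 0.04 to 0.11, from 0.10 to 0.24 and from 0.33 to 0.51, in the same order. For Vwf the lower end was voom with quality weights. Library size alone moved the median of all genes' log2 fold changes from 0.01 to 0.06.

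With a replicate block the number of members with an unadjusted p-value under 0.05 was 1 in place of 0: Vwf had a log2 fold change of 0.45 and an unadjusted p-value of 0.049 (edgeR). Of all 15122 genes tested, 326 had one with the block and 395 without it. Deviations from the group mean in same-numbered libraries had r of 0.005, 0.057 and -0.27 across genes. Differently numbered libraries were not set beside them, so these values cannot settle whether the numbers pair the rats.

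A pseudocount of 5 is small beside counts of 2464 or more, so it could hardly change the 6 ratios, and all kept their direction. With one rat left out, the log2 difference ran from 0.21 to 0.51 for Vwf to Kdr, from 0.22 to 0.34 for Vwf to Flt1, from 0.29 to 0.84 for Vwf to Vegfa, from -0.54 to -0.06 for Vegfa to Flt1, from -0.43 to 0.062 for Vegfa to Kdr (reversed without treated replicate 2) and from -0.011 to 0.19 for Flt1 to Kdr (reversed without injury model replicate 1). The cause of each reversal was not tested. Counts of the gene lists were not run.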
